A study of Mus musculus with 2 samples.

Results

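CTCF occupancy was described in 2 windows of the mouse genome (build mm8) whose positions were set to hold the antibody genes. They were chosen with earlier results of these data known. The heavy chain window lay on chromosome 12 from 113300001 to 116800000 and the kappa light chain window on chromosome 6 from 67300001 to 70800000. Each was 3.5 Mb long, and together they made up 7000 of the 2630648 1-kb bins of the assembled chromosomes. The reads came from 1 library of DNA immunoprecipitated with CTCF (ChIP) and, as its background, 1 library of extract made from whole cells without immunoprecipitation. Both were made from V6.5 embryonic stem cells, a male mouse line of genotype 129SvJaexC57BL/6 at passages 10 to 15, grown on irradiated MEFs (feeder fibroblasts) and then passaged on gelatin to remove them. On the assembled chromosomes the libraries held 2370818 ChIP and 4686960 extract reads, or 0.901 and 1.78 reads per kb, with at most 1 read per position and strand. With 1 library per group there was no replicate check. The tests below compare reads of these 2 libraries, and all intervals (95%, exact) cover counting error only.

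CTCF is a zinc-finger DNA-binding protein found at insulators and at the ends of chromatin loops, where cohesin stops. An antibody locus is a long array of variable (V) segments followed by short joining (J) segments, with diversity (D) segments between them in the heavy chain, and constant (C) genes at its other end. In developing lymphocytes 1 V segment is cut and joined to the J end, and CTCF sites in and around the arrays are known for shaping the loops that bring distant segments together and for marking the borders of the loci. Stem cells are not lymphocytes, and their antibody genes lie in the unrearranged order.

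RefSeq's annotation of a later build (GRCm38.p6) was used for names and order only, so no region below is assigned to a gene segment. In it the heavy chain locus begins, at its lower coordinates, with the constant gene Igha. It lists 8 C, 4 J, 10 D and 120 V segments, with a further 10 D and 63 V pseudogenes, and ends at Ighv1-86. The nearest protein-coding genes listed below it are Tmem121 and Tedc1, and those above it are Zfp386, a zinc-finger gene, and Vipr2, a receptor for the neuropeptide VIP. The kappa locus runs the other way: its V array, with 162 V entries of which 60 are pseudogenes, comes first, and its 5 J segments and the single constant gene Igkc come last. Genes listed below it include the interleukin receptor genes Il12rb2 and Il23r, and above it lies Rpia, an enzyme of the pentose phosphate pathway.

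CTCF reads were gathered at one end of each window. The crowded end was the lower end of the heavy window and the upper end of the kappa window, which in the order of the genes above are in both cases the ends where the constant genes lie. The neighbouring 3.5 Mb beyond each crowded end was itself rich in regions (115 and 80). Which regions fall inside a locus and which in its flanking genes was not analysed here. The heavy window held 48 enriched regions and the kappa window 20. An enriched region is a run of 200-bp windows whose ChIP reads passed an exact Poisson test against the expected count, at an adjusted p under 0.001 (Benjamini-Hochberg over all 6352481 windows with a ChIP read) and at 5 or more times that count. The expected count is the larger of the genome average and the local extract level, scaled by library totals. Over the genome 2.95% of these windows passed. With the libraries exchanged, 30 regions were called in the genome and 0 in either window. Of the 68 regions, 18 held no extract read, and each of the 68 had a ChIP-to-extract ratio with a 95% interval above 1, in the same reads that had called them. With each of the 2 extract lanes taken alone, 38 of 48 heavy and 15 of 20 kappa regions had such an interval in both lanes. The other 10 and 5 regions had at most 9 ChIP reads. Both strands were present in 67, and 0 had a strand imbalance with an adjusted p under 0.05 (exact binomial test, adjusted over all regions of the genome). Over the genome 3 of 34781 regions had one (0.00863%). With few reads per region and this adjustment the test could hardly flag any, so the count of 0 says little.

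**Figure D1:**
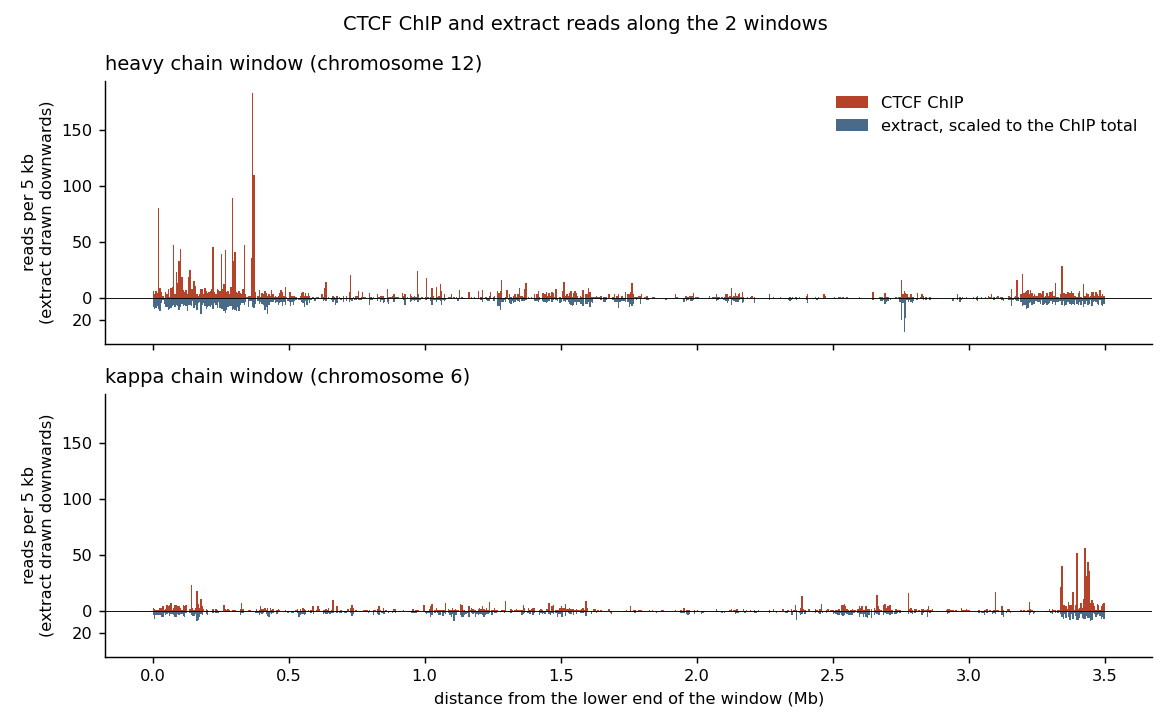
CTCF ChIP reads (upwards) and extract reads scaled to the ChIP total (downwards) per 5 kb, against distance from the lower end of each window in Mb. The highest bars stand in the first 0.4 Mb of the heavy window, where one 5-kb step holds 183 ChIP reads, and in the last 0.2 Mb of the kappa window, where the highest holds 56.

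The strongest sites of the heavy window stood side by side. A group of 6 neighbouring regions spanned 8.8 kb from 113663651 to 113672450. Its 312 ChIP reads stood against 21 in the extract, which is 29.4-fold (18.9 to 48.1) after scaling by library totals. They contained 30.7% of the ChIP reads in all heavy regions. Its strongest member, from 113669801 to 113671000, had 101 ChIP reads against 6 in the extract (33.3-fold, 14.8 to 92.8) and ranked 3rd on chromosome 12. Another, from 113664951 to 113666100, had 87 against 5 (34.4-fold, 14.2 to 109), and the one from 113667601 to 113668700 had 63 against 8 (15.6-fold, 7.44 to 37.6). The intervals of these 3 ratios overlap. The remaining 3 regions of the group, picked out once their values were known, had 28, 20 and 13 ChIP reads against 1, 1 and 0.

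**Figure D2:**
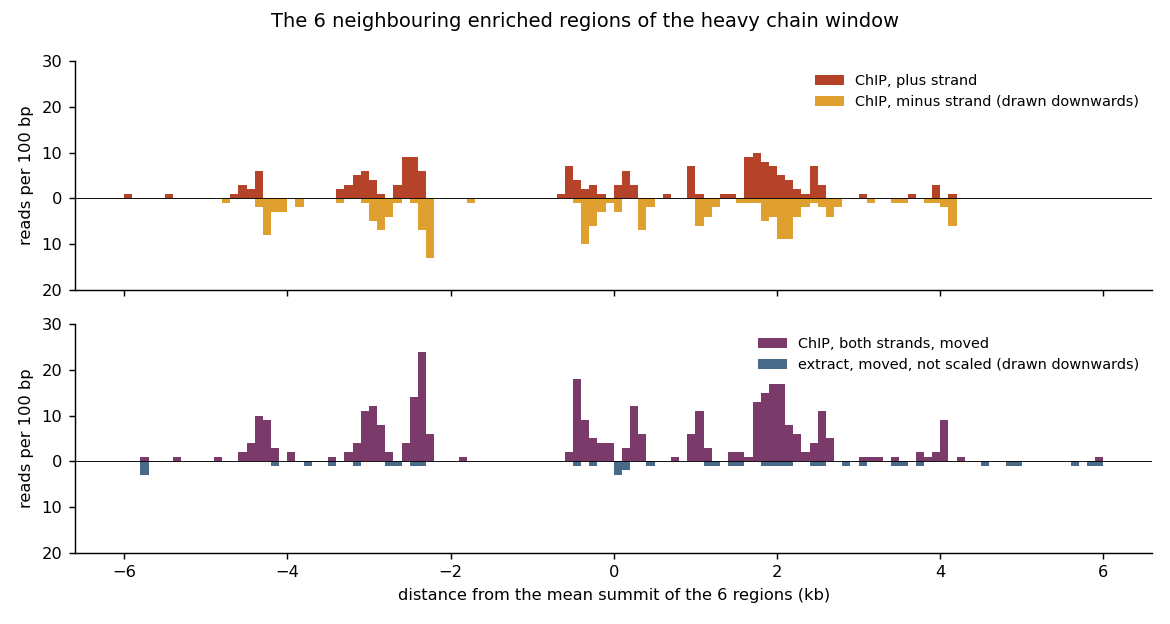
Reads per 100 bp around the 6 neighbouring heavy chain regions, against distance from the mean of their summits in kb. The upper panel shows 5' ends by strand, the lower one ChIP reads moved by 50% of the fragment length and unscaled extract reads, and the moved ChIP reads reach 24 per 100 bp where the extract has 1.

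Within the longer of these regions the reads formed more than one peak. In the region of 87 reads, moved ChIP reads reached 12 per 100 bp at one point and 24 per 100 bp at another nearer its upper end. At both peaks plus-strand reads came first and minus-strand reads followed. Joining of windows within 200 bp merged such neighbours, so the count of 6 is a count of regions and not of binding sites.

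The rest of the lower end held more scattered regions. Below the group of 6, where neighbouring summits lay at most 2.02 kb apart, 20 regions lay a median of 8.9 kb and up to 54.5 kb apart, with a median of 27.5 ChIP reads. In the whole 0.4 Mb from 113300001 to 113700000, a stretch set after the regions had been seen, 26 regions, the group of 6 included, lay a median of 8.4 kb apart and held 7 to 101 ChIP reads with a median of 29. Of the 18 heavy regions with 20 or more reads, 17 lay there. A site from 113635201 to 113635850 had 41 ChIP reads against 4 in the extract (20.3-fold, 7.34 to 77.9). Sites from 113377701 to 113378350 and from 113593801 to 113594300 had 37 ChIP reads apiece, against 3 and 1. Those from 113592151, 113603651, 113321301 and 113403551, each 500 or 550 bp long, had 35, 34, 33 and 32 ChIP reads against 2 or 3 in the extract. A heavy region at the median count lay here too, from 113406101 to 113406500, with 14 ChIP reads and no extract read. Its ratio was 9.23-fold when a floor of 3 extract reads is put in, and the lower bound of its exact interval was 6.56-fold. The 100 kb with the most summits in the heavy window held 11 of them, between 113592400 and 113672275, with 482 ChIP and 35 extract reads.

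Above this end the heavy window changed abruptly. The last region of the group of 6 was followed by 263.4 kb without a region. From 113700001 to 116000000 there were 18 regions in 2.3 Mb, a median of 69.9 kb apart, with 5 to 18 ChIP reads, a median of 8 and 0 regions of 20 reads or more. The first of them, from 113935501 to 113935850, had 13 ChIP reads against none (8.57-fold with the floor of 3 extract reads, lower bound 6.025). The strongest, from 114274151 to 114274600, had 18 against none (11.9-fold with that floor, lower bound 8.69). Both were picked out once their values were known. The lowest count was 5 ChIP reads, in 6 regions of the heavy window that all lay in this stretch, 1 of them from 114164501 to 114164700 with no extract read. The farthest pair of neighbours was the region from 115429401 to 115429700, with 5 ChIP reads against 1 (9.89-fold, 1.11 to 468), and the one from 116475951 to 116476300, with 12 against 1 (23.7-fold, 3.51 to 1014). Their summits were 1047 kb apart. The outermost region, from 116644551 to 116645050, had 27 ChIP reads against 3 (17.8-fold, 5.48 to 91.6) and was the only region of 20 or more reads in the upper 0.8 Mb of the window.

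The kappa window had the mirror arrangement with fewer regions. From 70600001 to 70800000, again a stretch set after the regions had been seen, 9 regions lay a median of 6.31 kb apart and held 5 to 49 ChIP reads with a median of 28. The strongest region of the window lay from 70698201 to 70698800 with 49 ChIP reads against 2 (48.4-fold, 12.7 to 411.2), and ranked 37th on chromosome 6. Sites from 70727351 to 70727850 and from 70734851 to 70736000 had 41 ChIP reads apiece, against 3 and 2. The one from 70734101 to 70734600 had 28 against 2. The outermost, from 70741351 to 70741850, had 31 against 1 (61.3-fold, 10.2 to 2498). Further down, sites from 70643451 to 70644200 and from 70638851 to 70639700 had 26 and 19 ChIP reads, each against 3. The 100 kb with the most summits, between 70639500 and 70735725, held 8 of them with 219 ChIP and 17 extract reads.

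Over the other 3.3 Mb of the kappa window regions were sparse and weak. There were 11, a median of 285.4 kb apart, with 5 to 20 ChIP reads and a median of 9. The outermost, from 67440251 to 67440750, had 20 ChIP reads against 3 (13.2-fold, 3.91 to 69.3), and was the only one of 20 or more. Sites from 70398151 to 70398600 and from 70076551 to 70077000 had 16 and 14 ChIP reads, against 3 and 0. A region from 68433601 to 68433800 had 5 against 1, the lowest ChIP count, which 2 regions of the window had. The longest gap between summits was 794.5 kb, between regions from 68893651 to 68893900 with 6 ChIP reads and from 69688151 to 69688500 with 9, neither with an extract read.

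**Figure D3:**
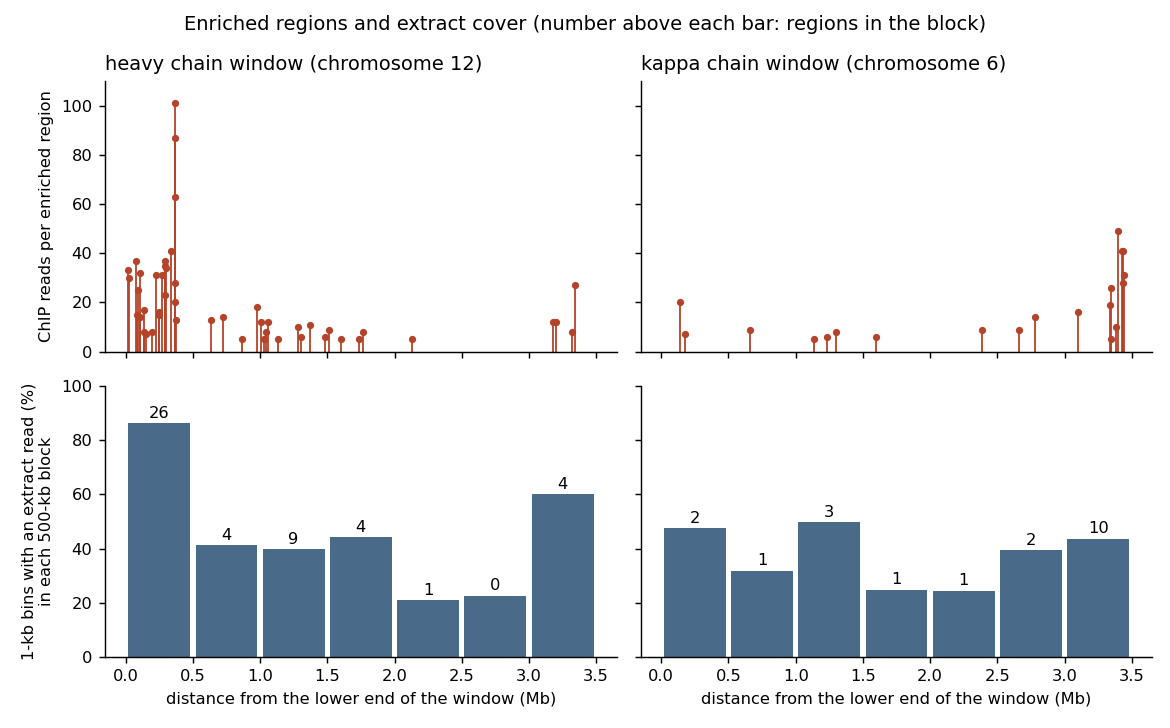
Upper panels: ChIP reads of each enriched region (points) against distance from the lower end of its window in Mb. Lower panels: percent of 1-kb bins holding an extract read in each 500-kb block, with the number of regions above each bar; the heavy block with 26 regions had 86.4% of its bins covered, and the kappa block with 10 had 43.6%.

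Fixed blocks of 500 kb gave the same order without a boundary chosen from the regions. From the lower end, the 7 heavy blocks held 26, 4, 9, 4, 1, 0 and 4 regions, and the 7 kappa blocks held 2, 1, 3, 1, 1, 2 and 10. The ChIP-to-extract ratio was 1.94 (1.8 to 2.09) in the first heavy block and 1.99 (1.745 to 2.26) in the last kappa block. In the 6 other heavy blocks it lay between 0.542 and 1.29, and in the 6 other kappa blocks between 0.767 and 1.02. The block without a region, from 115800001 to 116300000, held 80 ChIP and 292 extract reads, and a count of 0 regions allows up to 3.69 there. It contained the 1 bin of either window with over 10 times the genome average of extract reads, from 116065001 to 116066000, with 24 extract reads (9 and 15 in the 2 sequencing lanes) and 3 ChIP reads.

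Extract cover differed between these stretches as well. In the heavy stretch of 26 regions 88.2% of the 1-kb bins held an extract read, and in the kappa stretch of 9 regions 73.5% did. In the 2.3 Mb above the heavy stretch and the 3.3 Mb below the kappa stretch the shares were 36.4% and 35.1%. The median region in these 4 stretches had 30.5, 22, 11.5 and 8 extract reads in its surrounding 10 kb, in the same order. By fixed blocks, the kappa block of 10 regions had 43.6% of its bins covered, and kappa blocks of 2 and 3 regions nearer the lower end had 47.4% and 49.8%. That block of 10 regions contains the kappa stretch of 9 regions with its 73.5% cover, so its value averages over parts of unlike cover. The part of low cover in the lower counts of the 2 long stretches was not tested. Per Mb of bins that held an extract read, the heavy stretch had 73.7 regions (48.1 to 108) and the 2.3 Mb above it 21.5 (12.7 to 34). The kappa stretch had 61.2 (28 to 116) and the 3.3 Mb below it 9.49 (4.74 to 17). On chromosomes 12 and 6 as a whole the values were 15.7 (14.8 to 16.6) and 18.2 (17.4 to 19). The stretches were set from the regions themselves, so the contrast between them is a description that this choice favours. All regions were counted, also those without an extract read. These were 4 of 26 and 10 of 18 in the 2 heavy stretches, and 0 of 9 and 4 of 11 in the 2 kappa stretches.

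Regions with like cover were also set beside those on the rest of their chromosome. With 10 to 14 extract reads in the surrounding 10 kb, 6 heavy window regions had a median of 12.5 ChIP reads and 85 regions elsewhere on chromosome 12 a median of 12. With 0 to 4 extract reads the medians were 5.5 over 2 regions and 14 over 6, and with 5 to 9 they were 9 over 5 regions and 10 over 27. With 15 to 19 they were 8 over 7 regions and 14 over 265, and with 20 or more 21.5 over 28 regions and 16 over 861. The heavy regions were thus lower in some of these classes and higher in others. In the kappa window, with 0 to 4 extract reads, 2 regions had a median of 8.5, against 10.5 over 12 elsewhere on chromosome 6. With 5 to 9 the medians were 14 over 5 regions and 9 over 48, and with 10 to 14 they were 7.5 over 4 and 11 over 166. With 15 to 19 there was 1 kappa region, with 7 reads against a median of 13 over 360, and with 20 or more the medians were 29.5 over 8 and 16 over 1341. The direction differed between classes here too. These are descriptions, and the counts in the windows are small.

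Among 1-kb bins with a ChIP read, the share called lay above the background in the heavy window and near it in the kappa window. Of 1107935 bins of the genome with a ChIP read, 2.6% were called by the same Poisson rule. In the heavy window 40 of 964 such bins were called (4.15%) and in the kappa window 15 of 700 (2.14%). On chromosomes 12 and 6 the shares were 2.23% and 2.48%. Bins with a ChIP read were 964 of 3500 in the heavy window, 700 of 3500 in the kappa window and 1107935 of 2630648 in the genome. Of all bins, 40 of 3500, 15 of 3500 and 28827 of 2630648 were called. By that count the heavy window was near the background and the kappa window below it. The heavy bin with the most reads, from 113670001 to 113671000, held 90 ChIP reads where 3.04 were expected (exact Poisson test, Benjamini-Hochberg adjusted p = 1.21e-92). The kappa bin with the most, from 70698001 to 70699000, held 49 where 1.82 were expected (exact Poisson test, adjusted p = 2.46e-48). Called bins made up 9.58% of tested bins in the heavy stretch of 26 regions and 7.41% in the kappa stretch of 9, and 2.24% and 1.18% in the long stretches beside them. As these stretches were set from the regions, this contrast is a description.

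Taken whole, both windows held more ChIP reads than the scaled extract, though most of the length of each did not. The heavy window had 2500 ChIP and 3784 extract reads, a ratio of 1.31 (1.24 to 1.37), and the kappa window 1301 and 2307, a ratio of 1.12 (1.04 to 1.19). The heavy ratio was 1.17 times the kappa ratio (1.08 to 1.28, two-sided Fisher's exact test on reads, p = 0.000262). On the whole of chromosomes 12 and 6 the ratio was 0.983 and 1.003. It was 2.17 in the heavy stretch of 26 regions and 2.275 in the kappa stretch of 9, both set from the regions. In the remaining 2.3 and 0.8 Mb of the heavy window it was 0.9725 and 0.806, and in the other 3.3 Mb of the kappa window 0.8925. Outside regions and their 1-kb flanks the heavy and kappa window ratios were 0.741 (0.695 to 0.79) and 0.804 (0.743 to 0.869). Values below 1 were not particular to the windows: on the whole of chromosomes 12 and 6 this measure was 0.7275 and 0.722. The heavy value was 1.02 times that of the rest of its chromosome (0.9555 to 1.087) and the kappa value 1.11 times (1.03 to 1.205). Regions are called from the ChIP excess, so leaving them out removes it by construction. The heavy value outside regions was 0.922 times the kappa value (0.8335 to 1.02, two-sided Fisher's exact test on reads, p = 0.118). Scaling by background bins (bins of 10 kb with few ChIP reads) in place of library totals raised the whole-window ratios to 2.68 and 2.29.

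Per Mb, the heavy window had 2.4 times as many regions as the kappa window (1.4 to 4.27, two-sided exact binomial test, p = 0.000914). Per extract read the ratio was 1.46 (0.852 to 2.6, exact binomial test, p = 0.17), with the extract taken as a fixed exposure. Both tests take regions as independent counts, although regions lay in clusters, so the p-values cover counting error only. With the crowded end of each window left out, 22 regions in 3.1 Mb of the heavy window (7.1 per Mb) stood beside 11 in 3.3 Mb of the kappa window (3.33 per Mb). Since these ends were set from the regions themselves, this is a description with no test. Read counts per region overlapped between the windows: the median region had 14 ChIP reads in the heavy window, with quartiles of 8 and 30.2, and 12 in the kappa window, with quartiles of 7.75 and 26.5. Medians on the whole of chromosomes 12 and 6 were 15 and 14.

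Against the rest of its chromosome, the kappa window held fewer regions per Mb, and the heavy window did not differ beyond counting error. The heavy window had 13.7 regions per Mb (10.1 to 18.2), which is 1.26 times the rest of chromosome 12 (0.921 to 1.68, exact binomial test, p = 0.12), and the kappa window had 5.71 (3.49 to 8.83), which is 0.424 times the rest of chromosome 6 (0.259 to 0.657, p = 1.51e-05). Extract reads per Mb were 0.635 times the rest of the chromosome in the heavy window (0.614 to 0.655) and 0.367 times in the kappa window (0.352 to 0.382). Per extract read, the heavy density was 1.98 times that of the rest (1.45 to 2.64, exact binomial test, p = 2.38e-05) and the kappa density 1.16 times (0.705 to 1.79, p = 0.469). The low kappa density per Mb therefore did not hold per extract read. These tests take regions as independent counts, although regions lay in clusters. Other 3.5-Mb windows held 1 to 115 regions on chromosome 12 and 7 to 108 on chromosome 6. The p-values thus do not measure how unusual a window is on its chromosome.

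Among windows of 3.5 Mb tiled along the same chromosome, the heavy window was 9th of 31 by regions. The other 30 windows of chromosome 12 held 1 to 115 regions with a median of 35. The one with 115 directly adjoins the crowded end of the heavy window, and the one at its sparse end held 37. Likewise the window adjoining the crowded end of the kappa window held 80, and the one at its sparse end 27. By regions per 1000 extract reads the heavy window was first, with 12.7 (9.35 to 16.8) against 0.27 to 12 in the others of chromosome 12. The highest of these lies inside that interval. The strongest region of the heavy window, with 101 reads, was second to the highest of the others, with 115. The kappa window was 29th of 40 by regions, where the other 39 held 7 to 108 with a median of 48, and 16th by regions per 1000 extract reads, at 8.67 against a median of 7.12. Bins with an extract read made up 45% of the heavy window and 37.3% of the kappa window, against medians of 75% and 73.9% in the others. Windows under 50% were left out of the others by rule, 3 on chromosome 12 and 2 on chromosome 6, at 17.1% to 39.2% and at 20.5% and 38.1%. On each chromosome 1 of these reaches below the first read. The rank in cover is thus set by that rule, and with those windows counted neither locus was the least covered.

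**Figure D4:**
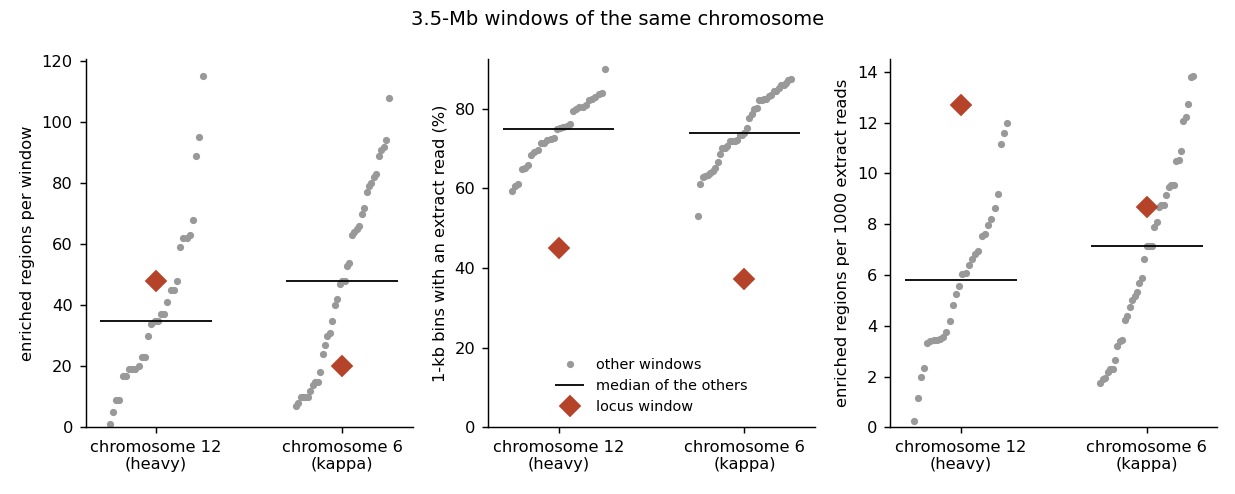
Each 3.5-Mb window of chromosomes 12 and 6 (grey points, in rising order; line, their median) with the locus window (red diamond), by regions, by percent of 1-kb bins with an extract read and by regions per 1000 extract reads. The heavy window has 48 regions at 45% cover, and the kappa window has 20 regions at 37.3% cover. Per 1000 extract reads the heavy window stands above the others of chromosome 12, at 12.7 (9.35 to 16.8) against at most 12.

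Reads of the same ChIP library that were not used for calling were also enriched in the regions called. As both parts come from 1 library, this cannot show whether the regions would recur in another. A randomly drawn 50% of ChIP reads gave 40 regions in the heavy window and 16 in the kappa window, and of these 32 and 12 overlapped a region found with the remaining 50%. These shares, 80% and 75%, were near the 80.3% over all regions of the genome (21757 of 27099). Of the held-out reads, 32.7% in the heavy window fell in such regions (421 of 1289, 30.1 to 35.3) and 20.8% in the kappa window (141 of 678, 17.8 to 24.1), against 22.3% over the genome (22.3 to 22.4). Extract reads there were 1.61% (1.24 to 2.07) and 0.824% (0.497 to 1.28). The excess of held-out reads over extract was 27.3-fold (20.8 to 36.3) in heavy regions, 29.3-fold (18.1 to 50.2) in kappa regions and 28.8-fold over the genome, a value inside both intervals. The same extract had served in the calling. Around the summits, the median held-out plus-strand 5' end lay 198.5 bp below the median minus-strand end in the heavy window and 202.5 bp in the kappa window, against 188 bp over the genome.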

How the data were processed

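In the deposited files each line is an aligned read, given by chromosome, start, end, strand and read number. The build was mm8 per the submitters' processing notes; how the aligner treated reads with several matching positions, and which aligner it was, is not given in the sources used here. Per the labels' protocols, libraries had 15 PCR cycles, gel selection near 250 bp (adapters counted) and Illumina sequencing. Reads were 36 bases long and each position and strand occurred once, so copies are unknown and counts have a ceiling. On chromosomes 1 to 19, X and Y there were 2370818 ChIP and 4686960 extract reads (2 lanes), 0.901 and 1.78 per kb. Starts were taken as counted from 0, which the files do not state.

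Each read was moved in its own direction by 50% of the fragment length (205 bp, from the strand shift with the most paired 5' ends), and the extract was scaled by library totals (0.506). Windows of 200 bp every 50 bp were tested against the largest of the genome average (0.18 reads) and the scaled extract in the surrounding 1, 5 and 10 kb, and passing windows within 200 bp were joined. Bins of 1 kb were tested in the same way. Background bins, 10 kb long and at or under the median ChIP count, gave a scaling of 0.246, which their choice may bias downwards. The caller was tested on simulated data with known sites added. That test required recovery of the stronger sites and few false regions, and set no such requirement for the weakest sites. Python 3.11.15, numpy 2.4.6 and scipy 1.17.1 were used.

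The windows, tests and naming rule were chosen with earlier results of these data known. The rule named, in each window, the 10 regions with the most ChIP reads, those at the median and minimum, the outermost pair, the farthest neighbours, the 100 kb with the most summits and bins of over 10 times the average extract. No mm8 genome or annotation was used, so no sequence, motif or gene segment is given.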

Additional observations from a re-analysis of the deposited data

How the results depend on the processing

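The counts of regions and of called bins, the whole-window ratios and the densities were recomputed with other scalings, thresholds, read shifts, single extract lanes, subsets of the ChIP reads, and other windows or bins. Leaving out regions under 10 reads was chosen after seeing the data. Region counts ranged from 35 to 67 in the heavy window and from 15 to 36 in the kappa window; the kappa count of 36 came at an adjusted p under 0.05, against 20. The kappa ratio of ChIP to extract fell from 1.12 to 0.831 when only bins with an extract read were used, a selection that by its construction drops ChIP reads and no extract reads. The heavy-to-kappa ratio of regions per Mb, 2.4, was 1.53 per 1000 extract reads outside regions, with an interval that includes 1; it stayed between 1.86 and 3 with intervals above 1 in the others. Against the rest of the chromosome, the heavy density was 1.98 times per 1000 extract reads, against 1.26, and the kappa density 1.16 times per 1000 extract reads, against 0.424. By that measure the windows ranked 1 of 31 and 16 of 40, against 9 and 29. No paired analysis was possible because ChIP and extract are single libraries, and none could be dropped. With a single extract lane, 3 named regions of 5 ChIP reads (from 114164501, 115429401 and 68433601) had ratio intervals that reach below 1, from 0.51 to 0.976 at the lower bound. Depth limits the weakest regions, which rest on 5 ChIP reads.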
